A study of Mus musculus with 4 samples.

Results

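The genes described here were 9 chemokines and chemokine receptors (Ccl2, Ccl3, Ccl4, Cxcl10, Cxcl12, Cx3cl1, Ccr1, Ccr2 and Cxcr4), taken as the rows with these symbols among the 40091 genes listed over 4 single-nucleus RNA-seq libraries of mouse thalamus. The mice were wild-type C57BL6 adults of 7 to 8 weeks. The NS group received saline and the COL group received Coll IV, a collagenase that causes a haemorrhage (0.01 U in 10 nl), into the VPM and VPL nuclei of the right thalamus. Tissue was taken on day 7, and each of the 2 libraries per group held nuclei pooled from 3 mice, so the library was the replicate and the spread between single mice was not measured.

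Chemokines are small secreted proteins that attract leukocytes along a gradient and signal through G protein-coupled receptors. Their classes are named after the spacing of the cysteines near the start of the mature protein. CCL2 recruits monocytes through CCR2, and CCL3, which is closely related to CCL4, acts on CCR1. CXCL10 acts on CXCR3 of activated T cells, CXCL12 acts on CXCR4 and is bound by the scavenging receptor ACKR3, and CX3CL1, a membrane-bound chemokine of neurons, acts on CX3CR1 of microglia.

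The cysteine spacing that defines the 3 ligand classes can be read from the coding sequences, which are shown with the cysteine codons in capitals (GENCODE M21 transcripts on GRCm38, codons counted from 1 at the start codon). In the CC ligands Ccl2 and Ccl4 codons 34 and 35 were adjacent, in the CXC ligands Cxcl10 and Cxcl12 codons 30 and 32 were separated by 1 codon, and in Cx3cl1 codons 32 and 36 were separated by 3 codons.
Ccl2: ctcaccTGCTGCtactcattc
Ccl4: acttccTGCTGTttctcttac
Cxcl10: gtccgcTGCaacTGCatccatatc
Cxcl12: taccgaTGCcccTGCcggttcttc
Cx3cl1: acgaaaTGCgaaatcatgTGCgacaagatg

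All 9 genes are protein-coding, and their positions are those of GENCODE M21 on GRCm38. Ccl2 lies at chr11:82035571-82037453, Ccl3 at chr11:83647844-83649355 and Ccl4 at chr11:83662584-83664683, the last pair 13.2 kb apart. Ccr1 (chr9:123962124-123968692) and Ccr2 (chr9:124101950-124113557) lie 133.3 kb apart. Cxcl10 lies at chr5:92346638-92348889, Cxcl12 at chr6:117168535-117181367, Cxcr4 at chr1:128588199-128592293 and Cx3cl1 at chr8:94772009-94782427. Ccl2 overlaps Gm17268 and Cxcl10 overlaps Art3, each on the opposite strand. Ccr2 shares a run of 152 bases and Ccr1 a run of 47 bases with another gene of the family, so a read that lies wholly within such a run cannot be assigned to 1 gene. These runs lie 1087 and 1487 bases from the end of the transcript. The other longest runs that members share with a gene of the family were 14 to 23 bases.

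RefSeq promoters (GRCm38.p6, 250 bases before to 50 after the start site) were given for 7 of the 9 genes. They were searched for TATAAA on the forward strand (in 8.32% of all 32851 promoters) and, on both strands, for GAAANNGAAA, the spaced repeat bound by interferon regulatory factors (3.44%), for GGGNNTTTCC, a form of the NF-kB site (1.63%), and for TGACTCA, the AP-1 site (5.2%). Other forms of the NF-kB site were not searched, also not in the Cxcl10 stretch, so no match does not mean that a site is absent. No match of a motif overlapped a match of another in these promoters. The Cxcl10 stretch is shown because 2 of the 4 motifs occurred in it, GAAANNGAAA from -213 to -204 and TGACTCA on the minus strand from -74 to -68. The Cxcr4 stretch is shown for its TATAAA from -30 to -25. Cx3cl1 held TATAAA from -6 to -1, and the letters searched did not occur in the windows of Cxcl12, Ccr1, Ccr2 and Ccl3. The motifs are in capitals.
Cxcl10, chr5:92348947-92349112, minus strand: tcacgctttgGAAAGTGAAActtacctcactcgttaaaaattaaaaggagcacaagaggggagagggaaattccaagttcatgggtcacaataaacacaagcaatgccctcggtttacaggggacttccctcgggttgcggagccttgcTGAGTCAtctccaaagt
Cxcr4, chr1:128592314-128592339, minus strand: agcgtgttttTATAAAagtccggttc

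The files held 68746459 to 77557870 UMIs (unique molecules) per library, and 32291 nuclei of 32332 barcodes were kept, with 102 barcodes occurring in more than 1 library. Clusters were named from marker genes, and the names stand for "neuron-like", "microglia-like" and so on. Neurons numbered 2683 to 5013 per library, oligodendrocytes 1557 to 3521, astrocytes 201 to 1208, microglia 321 to 543, oligodendrocyte precursor cells (OPC) 216 to 432 and vascular cells 27 to 64. Macrophages numbered 3 and 5 in the NS libraries and 318 and 471 in the COL libraries, and T and NK cells 8 and 4 against 53 and 80. Microglia came almost wholly from 1 cluster in NS and from 2 other clusters in COL, of which 1 was led by Top2a and Mki67, genes of dividing cells. Oligodendrocytes came almost wholly from clusters 1 and 7 in NS and cluster 2 in COL, astrocytes mainly from cluster 5 in NS and 16 in COL, and OPC mainly from cluster 13 in NS and 10 in COL. Neurons were also spread unequally, with 1941 and 2624 NS nuclei against 8 and 51 COL nuclei in cluster 0 and 79 and 143 NS nuclei against 972 and 1669 COL nuclei in cluster 3, so the changes within all these types also compare different clusters. Median UMIs per nucleus were higher in COL, for example 2230 and 1995 in NS microglia against 4056 and 4314 in COL microglia. Levels are given as CPM, the UMIs of a gene divided by all UMIs of that cell type in that library and scaled to 1000000, and intervals cover counting error only.

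Over all nuclei, 6 of the 9 genes were higher in COL than in NS and none was lower, beside 9.45% of the 25570 genes tested that were called in either direction (edgeR quasi-likelihood test, p adjusted over all tested genes by the Benjamini-Hochberg method, adjusted p under 0.05). The 6 were the ligands Ccl2, Ccl3 and Ccl4 and the receptors Ccr1, Ccr2 and Cxcr4. All 6 had few UMIs in NS and passed the filter on low counts through their COL libraries, which favoured a higher call. Without that filter 7 of the 9 were higher and none was lower, beside 6893 of 40088 genes called. The median log2 fold change of the 9 genes was 4.94, against 0.02 over all genes tested. Over all nuclei, more cells of a type and more RNA per cell cannot be told apart.

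Ccl2, the ligand of CCR2, had 1 UMI and 0 UMIs in the NS libraries and 221 and 330 UMIs in the COL libraries. This was a ratio of 579.9 in CPM (95% counting interval 104 to 22945). Ccr2, the receptor of inflammatory monocytes, had 16 and 9 UMIs in NS and 460 and 935 in COL, a log2 fold change of 5.99 ± 0.43 (SE, edgeR adjusted p = 0.00222). The other monocyte receptor, Ccr1, had 1 and 4 UMIs in NS against 234 and 294 in COL, a log2 fold change of 6.85 ± 0.55 (edgeR adjusted p = 0.00235). The groups did not overlap for any of the 3 genes. With 2 libraries per group such separation has an exact permutation p of 0.333. Its share over all genes was not counted, here or for the genes below.

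Ccl3 had 1 UMI in each NS library and 39 and 80 UMIs in the COL libraries, a ratio of 62.6 (95% counting interval 17 to 523). Ccl4 had 7 and 2 UMIs in NS and 70 and 177 in COL, a log2 fold change of 4.94 ± 0.66 (edgeR adjusted p = 0.0122). Cxcr4, the receptor of CXCL12, had 8 UMIs in each NS library and 92 and 136 in COL, a log2 fold change of 4.02 ± 0.43 (edgeR adjusted p = 0.00586). Here too the groups did not overlap.

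The other 3 genes, all ligands, did not pass the test over all nuclei. Cxcl10 had 10 and 20 UMIs in NS and 23 and 71 in COL, a log2 fold change of 1.79 ± 0.65 (edgeR adjusted p = 0.112), and it passed without the filter on low counts (adjusted p = 0.0029). Cxcl12 had 66 and 93 UMIs in NS and 71 and 111 in COL, a log2 fold change of 0.37 ± 0.40 (edgeR adjusted p = 0.538). Cx3cl1 had 57.1 and 50.2 CPM in NS and 43.5 and 42.6 CPM in COL, a log2 fold change of -0.16 ± 0.15 (edgeR adjusted p = 0.47). The CPM of Cx3cl1 was lower in both COL libraries than in both NS libraries, but not beyond the spread that the test allowed for.

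**Figure D1:**
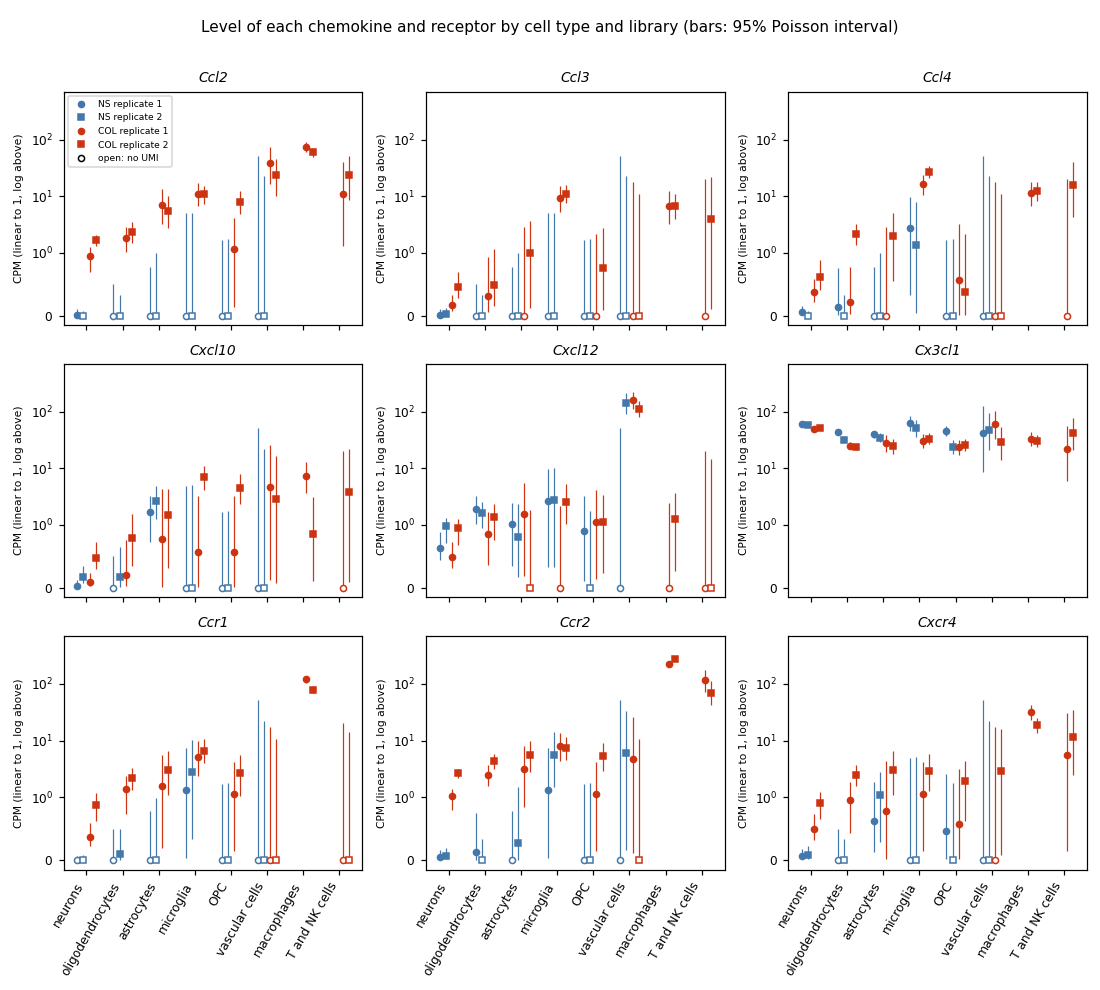
Level of each gene by cell type and library, in CPM on an axis that is linear up to 1 and logarithmic above, with 95% Poisson intervals and open symbols for libraries with no UMI. Macrophages and T and NK cells are drawn for COL only. Ccl2, Ccr1, Ccr2 and Cxcr4 were highest in COL macrophages, Cxcl12 in vascular cells, and Cx3cl1 was found at 22.2 to 61.9 CPM in every type drawn.

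By cell type, Ccl2 was highest in the COL macrophages, with 111 and 139 UMIs (73.7 and 59.1 CPM) in COL replicates 1 and 2. They held 50.2% and 42.1% of all Ccl2 UMIs of these libraries, while macrophages held 2.17% and 3.39% of the libraries' UMIs. Vascular cells had 37.8 and 23.3 CPM, from only 8 UMIs in each library, in 4 nuclei each, and T and NK cells had 11.1 and 23.4 CPM, from 2 and 6 UMIs. Microglia had 10.9 and 10.7 CPM in COL and 0 UMIs in both NS libraries, at least 5.26-fold higher against 3 UMIs over the group (edgeR adjusted p = 0.00232). Without COL replicate 1 or 2, and after thinning each nucleus to 2000 UMIs, Ccl2 did not pass the filter on low counts in microglia. Astrocytes had 6.97 and 5.52 CPM, oligodendrocytes 1.81 and 2.37 CPM and neurons 0.946 and 1.65 CPM in COL. OPC had 2 UMIs in COL replicate 1 and 21 UMIs in COL replicate 2, where 9 nuclei held them. Macrophages led in both COL libraries, but their counting interval overlapped that of vascular cells in COL replicate 1 and that of T and NK cells in COL replicate 2. The counting intervals of vascular cells, T and NK cells and microglia overlapped in COL replicate 2, so these counts do not set their order.

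Ccl3 and Ccl4, inflammatory ligands that many myeloid cells release, were most abundant in COL microglia. Ccl3 had 0 UMIs in NS microglia of both libraries and 16 and 30 UMIs (9.20 and 11.1 CPM) in COL microglia, at least 5.04-fold higher (edgeR adjusted p = 0.00274). Ccl4 had 2 UMIs and 1 UMI in NS microglia (2.69 and 1.39 CPM) and 28 and 72 UMIs (16.1 and 26.6 CPM) in COL microglia, a ratio of 10.9 (95% counting interval 3.64 to 54.0; edgeR adjusted p = 0.00148). Neither gene overlapped between the groups. The call of Ccl3 was lost without NS replicate 1 (adjusted p = 0.0515), and Ccl3 did not pass the filter without COL replicate 1 or 2. After thinning neither gene passed it in microglia. COL macrophages had 6.64 and 6.80 CPM of Ccl3 and 11.3 and 12.3 CPM of Ccl4. Microglia held 41.0% and 37.5% of the Ccl3 UMIs and 40% and 40.7% of the Ccl4 UMIs of the COL libraries, and vascular cells had no UMI of either gene in any library.

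Ccl3 and Ccl4 UMIs were found in part in the same microglia. Of the 16 and 23 COL microglia with a Ccl3 UMI, 37.5% and 65.2% also had a Ccl4 UMI, against 3.36% and 4.42% of the microglia without Ccl3. The nuclei with Ccl3 were deeper, with a median of 5116.5 and 5456 UMIs against 4030 and 4261.5. Ccl2 and Ccl3 UMIs met in 0 and 3 of the 17 and 25 COL microglia with Ccl2, and Ccl3 was found in 4.49% and 3.86% of those without. In the cluster led by Top2a and Mki67, Ccl4 was at 20.9 and 16.6 CPM, beside 14.1 and 31.3 CPM in the other COL microglia. Without that cluster the Ccl4 call in microglia held, and Ccl2 and Ccl3 no longer passed the filter on low counts.

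Cxcl10, an interferon-induced ligand, was sparse in every cell type. In NS its UMIs lay mainly in astrocytes, 8 of 10 and 10 of 20, in 2 and 3 nuclei. In COL replicate 1, macrophages had 11 UMIs in 3 nuclei (7.31 CPM) and microglia 1 UMI (0.575 CPM). In COL replicate 2 the macrophages had 2 UMIs (0.85 CPM), microglia 19 UMIs in 5 nuclei (7.02 CPM) and OPC 12 UMIs in 3 nuclei (4.56 CPM). The cell type with the highest Cxcl10 level therefore differed between the COL libraries, and each of these levels rested on at most 5 nuclei.

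Cxcl12, which retains CXCR4-bearing cells, was at 0, 145, 161 and 113 CPM in vascular cells of NS replicates 1 and 2 and COL replicates 1 and 2, from 0, 24, 34 and 39 UMIs. In the other named types it did not exceed 2.79 CPM in any library. Neurons, with 63.7% to 73.0% of all UMIs, held 54.5% and 48.4% of the Cxcl12 UMIs in NS and 35.2% and 37.8% in COL. Vascular cells, with at most 0.495% of all UMIs, held 0% and 25.8% in NS and 47.9% and 35.1% in COL. The 34 vascular nuclei of NS replicate 1 held 70806 UMIs, so that 0 UMIs allowed up to 42.4 CPM, and the values of the other 3 libraries lay above this limit. The difference between the groups in vascular cells was not called (edgeR log2 fold change 0.45 ± 0.66, adjusted p = 0.816; 1.35% of the 4587 genes tested were called), and without NS replicate 2, the only NS library with a vascular Cxcl12 UMI, the adjusted p was 0.0031. Vascular nuclei with more UMIs of endothelial markers had 820, 220 and 394 CPM of Cxcl12 in NS replicate 2 and COL replicates 1 and 2, from 19, 17 and 25 UMIs in 5 of 12, 3 of 6 and 6 of 13 nuclei, and those with more UMIs of pericyte and fibroblast markers had 38.4, 126 and 44 CPM, from 5, 17 and 12 UMIs. In NS replicate 1 these groups held 5 and 28 nuclei and no Cxcl12 UMI.

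Cx3cl1, the ligand with most UMIs among the 6, was at 61.6 and 58.0 CPM in NS neurons and 49.5 and 50.8 CPM in COL neurons (edgeR log2 fold change -0.09 ± 0.13, adjusted p = 0.671). Neurons held 83.2% and 75.9% of the Cx3cl1 UMIs of the COL libraries, beside 73.0% and 63.7% of all UMIs. Every other named type of the COL libraries also held Cx3cl1, between 22.2 and 61.4 CPM. In microglia it was at 61.9 and 51.5 CPM in NS and 30.5 and 33.6 CPM in COL, and it fell by 0.75 ± 0.25 on the log2 scale (edgeR adjusted p = 0.0404). The call was lost in DESeq2 (adjusted p = 0.233), without the dividing microglia (adjusted p = 0.179), after thinning to 2000 UMIs (adjusted p = 0.137), without the filter on low counts (adjusted p = 0.107), with nuclei named singly by marker score (adjusted p = 0.0887) and without NS replicate 1 (adjusted p = 0.219), NS replicate 2 (adjusted p = 0.105) or COL replicate 1 (adjusted p = 0.0565). Cx3cl1 was also lower in both COL libraries than in both NS libraries in oligodendrocytes (44.6 and 32.0 against 25.3 and 23.9 CPM, log2 fold change -0.55 ± 0.20, edgeR adjusted p = 0.079) and in astrocytes (40 and 34.7 against 27.9 and 24.6 CPM, -0.50 ± 0.22, adjusted p = 0.144), which did not pass the test. The change in microglia was not shown to differ from the mean change in the other types (interaction -0.25 ± 0.27, adjusted p = 0.741). The 8 neuron markers summed to 2875 and 2607 CPM in NS microglia and 5206 and 4211 CPM in COL microglia, and their part in the level of Cx3cl1 was not tested.

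Among the receptors, Ccr2 had 336 and 651 UMIs (223 and 277 CPM) in COL macrophages, which held 73.0% and 69.6% of all Ccr2 UMIs of these libraries. T and NK cells had 117 and 70.2 CPM. In microglia it was at 1.35 and 5.57 CPM in NS and at 8.05 and 7.39 CPM in COL, and it did not pass the filter on low counts for the test there. Ccr2 was found in 14.8% and 17.1% of COL macrophages when each nucleus was thinned to 1000 UMIs, against 0.171% and 0.373% of COL neurons. Without thinning these shares were 32.4% and 37.4% against 1.51% and 4.06%, at median depths of 4236 and 4463 UMIs against 15091 and 14937. Of the NS macrophages, 1 of 3 nuclei in replicate 1 held 6 Ccr2 UMIs and none of 5 in replicate 2 held any.

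Ccr1, a receptor of CCL3, had 182 and 187 UMIs (121 and 79.5 CPM) in COL macrophages, 77.8% and 63.6% of all Ccr1 UMIs of the libraries. In microglia it was at 1.35 and 2.79 CPM in NS and 5.17 and 6.65 CPM in COL, a ratio of 2.96 (95% counting interval 0.910 to 15.2), which includes no change. T and NK cells and vascular cells of the COL libraries held no Ccr1 UMI. After thinning, Ccr1 was found in 11.6% and 7.25% of COL macrophages, against 0.0684% and 0.0745% of COL neurons. Of the macrophages with a Ccr2 UMI, 49.5% and 36.9% also had a Ccr1 UMI, against 26.5% and 18.6% of those without, at close median depths (4433 and 4465.5 against 4177 and 4458 UMIs).

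Cxcr4 had 48 and 44 UMIs (31.9 and 18.7 CPM) in COL macrophages, 52.2% and 32.4% of all Cxcr4 UMIs. T and NK cells, which are known to carry this receptor, had 5.55 and 11.7 CPM from 1 and 3 UMIs. Microglia had 0 UMIs in NS and 2 and 8 UMIs in COL. The 4 genes Ccl2, Ccr2, Ccr1 and Cxcr4 were higher in macrophages than in every other named type in both COL libraries, and Cxcr4 no longer was when nuclei were thinned to 2000 UMIs before summing.

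**Figure D2:**
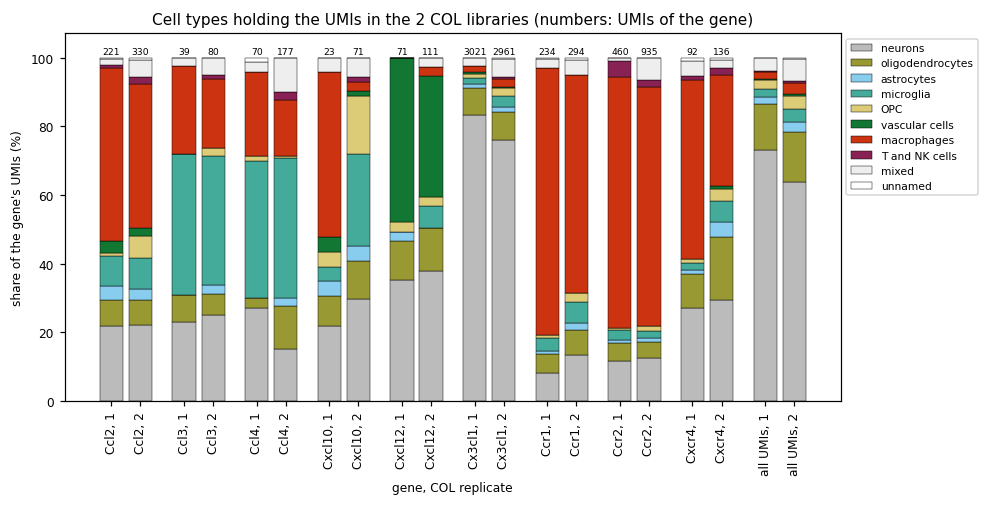
Share of each gene's UMIs, in percent, held by each cell type in COL replicates 1 and 2, with the number of UMIs above each bar and all UMIs of the library at the right. Macrophages held 42.1% to 77.8% of the UMIs of Ccl2, Ccr1 and Ccr2, although they held 2.17% and 3.39% of all UMIs.

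Within the COL libraries macrophages and microglia were compared with the library as a block. Of the 8 members tested 5 were called, 4 higher in macrophages and 1 lower, beside 28.5% of the 13391 genes tested. Ccr2 was higher in macrophages by 5.03 ± 0.19 on the log2 scale (SE, edgeR adjusted p = 6.61e-19), Ccr1 by 3.95 ± 0.23 (adjusted p = 1.91e-14), Cxcr4 by 3.36 ± 0.42 (adjusted p = 1.6e-07) and Ccl2 by 2.57 ± 0.22 (adjusted p = 6.56e-11). Each was higher in macrophages in 2 of 2 libraries. The sums of 2 types in 2 libraries left 1 residual degree of freedom. The p-values of this comparison therefore rest largely on the spread shared across genes. When nuclei were instead named singly by a marker score, which kept 64.9% of the macrophages, the difference of Ccr2 was 2.26. Ccl4 was lower in macrophages by -0.91 ± 0.28 (adjusted p = 0.0139), a call that was lost in DESeq2 (adjusted p = 0.653), without the library block (adjusted p = 0.131) and after thinning (adjusted p = 0.492). Ccl3 (-0.62 ± 0.39), Cxcl10 (-0.36 ± 0.74) and Cx3cl1 (-0.04 ± 0.20) did not pass the test.

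**Figure D3:**
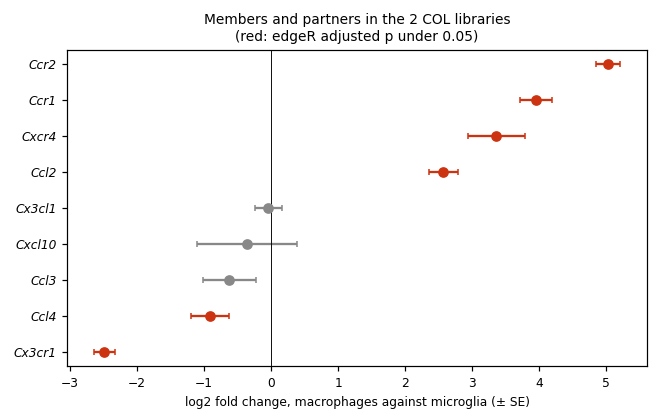
Log2 fold change of macrophages against microglia in the 2 COL libraries, with its standard error, for the 8 members tested and for Cx3cr1; red points passed the edgeR test. Ccr2, Ccr1, Cxcr4 and Ccl2 lay at 2.57 to 5.03, and Ccl4 and Cx3cr1 lay below 0.

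Ccl2, Ccr2 and Ccr1 were also found at low levels in oligodendrocytes, astrocytes and neurons. In oligodendrocytes 3 of the 5 members tested were higher in COL, beside 22.3% of the 17136 genes tested. They were Ccl2 (0 UMIs in both NS libraries, 17 and 24 in COL, at least 13-fold), Ccr2 (1 UMI and 0 UMIs against 23 and 44) and Ccr1 (0 UMIs and 1 UMI against 13 and 22), with edgeR adjusted p-values of 0.00677, 0.00571 and 0.00909. In astrocytes 1 of 2 members tested was higher, Ccl2 with 9 and 11 UMIs in COL against 0 in both NS libraries (at least 17.2-fold, edgeR adjusted p = 0.00385), beside 15.9% of the 14569 genes tested. These 3 genes in oligodendrocytes and Ccl2 in astrocytes passed the filter on low counts only through their COL counts, which favoured a higher call. Without the filter 5 of the 9 members were higher in oligodendrocytes, beside 5367 of 31075 genes called. In astrocytes 3 of the 9 then were, beside 3380 of 29059 genes called. Without COL replicate 2 Ccr1 did not pass the filter in oligodendrocytes, and without COL replicate 1 or 2 Ccl2 did not pass it in astrocytes. The 8 macrophage markers summed to 10.5 and 14.3 CPM in NS astrocytes and 41.1 and 58.2 CPM in COL astrocytes. In OPC the 1 member tested, Cx3cl1, was not called (-0.45 ± 0.28, edgeR adjusted p = 0.298; also not in DESeq2), beside 18.1% of the 13328 genes tested. In microglia 4 of the 9 members passed the filter and were called (Ccl2, Ccl3 and Ccl4 higher and Cx3cl1 lower), beside 28.2% of the 12093 genes tested. Ccl2, Ccl3 and Ccl4 passed it only through their COL counts, which favoured a higher call. Without the filter 4 of the 9 were higher and none lower, beside 3880 of 25415 genes called.

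In neurons none of the 7 members tested was called by edgeR, beside 0% of the 23741 genes tested, and 5 of the 7 had an unadjusted p under 0.05, as had 6681 of all genes. DESeq2 called 3 of the 7, Ccl2, Ccr2 and Cxcr4, beside 10.3% of the genes tested. In simulated neuron counts DESeq2 called 45.2% of 199 changed genes and made 37 false calls, and edgeR called 28.1% and made 5. Ccr2 had 3 UMIs in each NS library and 54 and 116 in COL neurons (edgeR log2 fold change 5.03 ± 0.63, adjusted p = 0.111). Ccl2 had 1 UMI and 0 UMIs against 48 and 73, and Ccr1 none against 19 and 39. The NS and COL libraries did not overlap for these genes, and their neurons came largely from different clusters.

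The level of a macrophage gene in another type was set against that of 7 macrophage markers with at least 20 UMIs in the macrophages of both COL libraries (Mrc1, F13a1, Ms4a7, Stab1, Arg1, Itga4 and Chil3). Neurons held a median of 0.565% and 2.54% of the macrophage level of these markers in COL replicates 1 and 2, and oligodendrocytes 0.834% and 3.23%. Single markers ranged from 0.269% to 10.3% in neurons of COL replicate 1 and from 0.664% to 4.69% in those of COL replicate 2. In oligodendrocytes they ranged from 0.414% to 15% and from 0.705% to 8.96%, and in astrocytes from 0.302% to 11.7% and from 0.889% to 6.97%. Ccr2 lay at 0.477% and 0.948% of its macrophage level in neurons and 1.10% and 1.57% in oligodendrocytes, and Ccr1 at 0.310% and 1.11% in neurons and 1.14% and 2.73% in oligodendrocytes. Ccl2 lay at 1.28% and 2.79% in neurons and 2.45% and 4.01% in oligodendrocytes, above the marker median in both libraries. In astrocytes Ccl2 lay at 9.46% and 9.35%, against marker medians of 2.06% and 3.13%, and in OPC at 1.56% and 13.5%, against 0.921% and 1.80%. Cxcr4 lay at 1.54% and 4.83% in neurons, 3.00% and 13.2% in oligodendrocytes and 2.43% and 16.1% in astrocytes, there from 1 and 6 UMIs. In COL replicate 2 it lay above every single marker in these types, and in COL replicate 1 within their range. All 8 macrophage markers summed to 18.7 and 19.6 CPM in NS oligodendrocytes and 37.2 and 56.4 CPM in COL oligodendrocytes, and to 16.5 and 16.0 CPM against 24.5 and 35.3 CPM in neurons. In NS oligodendrocytes Ms4a7 and Chil3 were at 0 in both libraries. The part of free or carried-over macrophage RNA in these calls was not tested.

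In COL microglia the marker median was 8.24% and 10.9% of the macrophage level. Ccr2 lay below it, at 3.61% and 2.67%, and Ccl2 above it, at 14.8% and 18.1%. Single markers ranged from 1.23% to 107.8% and from 2.21% to 123.8%, so both genes lay within their spread. Ccl3 lay at 138% and 163% and Ccl4 at 143% and 216%, differences that for Ccl3 did not pass the test given above and for Ccl4 passed it only in part of the fits. The macrophage markers summed to 152 and 249 CPM in NS microglia and 520 and 583 CPM in COL microglia, and Chil3 was at 0 in both NS libraries.

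**Figure D4:**
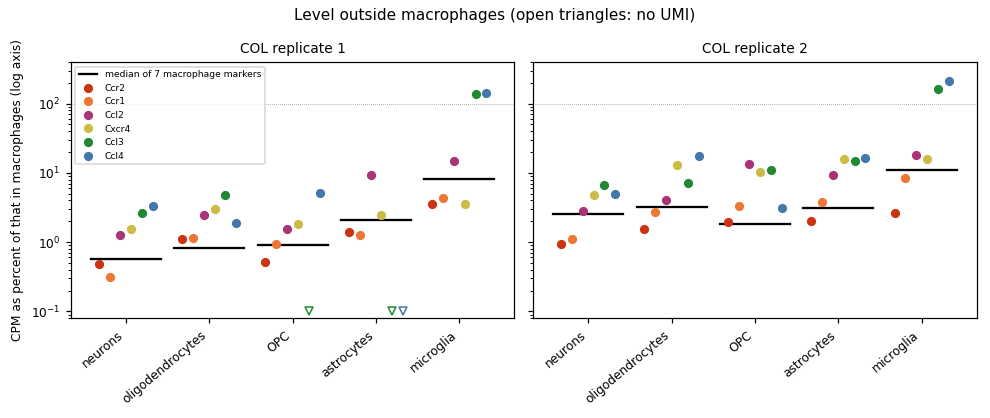
CPM of 6 genes in 5 cell types as percent of their CPM in macrophages of the same COL library (logarithmic axis), with the median of 7 macrophage markers as a line and open triangles for genes with no UMI. Ccr2 and Ccr1 lay near or under the marker line in neurons, Ccl2 lay above it in every type drawn, and Ccl3 and Ccl4 passed 100% in microglia.

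Whether the change in microglia differed from the mean change in neurons, oligodendrocytes, astrocytes and OPC was tested with an interaction term. Of the 7 members that passed the filter none was called, beside 4.81% of the 18198 genes tested, and 2 had an unadjusted p under 0.05. Ccl2, Ccl3 and Cxcl10 had 0 UMIs in NS microglia and gave no estimate. Ccr1 (-4.93 ± 1.40, edgeR adjusted p = 0.0627) and Ccr2 (-4.73 ± 1.43, adjusted p = 0.0744) had the largest estimates, which depend on the zero counts of the other types in NS. DESeq2 called Ccr2 (adjusted p = 0.0096).

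Sources were also compared over the types present in every library, each against the mean of the others, with the library as a block. Cx3cl1, Ccl2 and Ccr2 passed the filter. Cx3cl1 was higher in neurons by 0.87 ± 0.10 on the log2 scale (edgeR adjusted p = 3.13e-08) and lower in OPC by -0.35 ± 0.13 (adjusted p = 0.037), and it was not called in the other types. In OPC no member was called without NS replicate 2, COL replicate 1 or COL replicate 2, with nuclei named by marker score, after thinning or without the library block. Ccl2 was lower in neurons (-2.18 ± 0.36, adjusted p = 2.52e-05) and oligodendrocytes (-1.36 ± 0.38, adjusted p = 0.00554) and higher in vascular cells (2.54 ± 0.52, adjusted p = 0.00121) and microglia (0.99 ± 0.37, adjusted p = 0.0287). Ccr2 was higher in microglia by 1.56 ± 0.55 (adjusted p = 0.0202) and was not called in the other types by this fit. Without NS replicate 1 or COL replicate 1 no member was called in microglia, and with DESeq2 or without doublets 2 members rather than 1 were lower in neurons. Of the 3 members 2, 1, 0, 2, 1 and 1 were thus called in neurons, oligodendrocytes, astrocytes, microglia, OPC and vascular cells, beside 64.3%, 52.7%, 39.4%, 52.2%, 33.4% and 20.7% of the 16539 genes tested. In astrocytes DESeq2 also called 0 and none of the 3 had an unadjusted p under 0.05. Without the library block every call of Ccl2 and Ccr2 was lost.

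Partners of these genes were measured as well. Cx3cr1, the receptor of CX3CL1, was at 847 and 827 CPM in NS microglia and 493 and 546 CPM in COL microglia, and it fell by 0.62 ± 0.15 on the log2 scale (SE, edgeR adjusted p = 0.00688). With nuclei thinned to 1000 UMIs, 55.5% and 57.0% of NS microglia and 37.7% and 41.3% of COL microglia held Cx3cr1. The 8 microglia markers also summed to less in COL, 4538 and 4611 CPM against 6739 and 6495 CPM. With nuclei named singly by marker score the log2 fold change was -0.12 (adjusted p = 0.618), and the call was also lost without NS replicate 1 (adjusted p = 0.0674) or NS replicate 2 (adjusted p = 0.119). COL macrophages had 53.8 and 136 CPM, lower than microglia by -2.49 ± 0.16 (edgeR adjusted p = 1.63e-13).

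Cxcr3, the receptor of CXCL10, had 2 UMIs and 0 UMIs in NS and 10 and 22 UMIs in COL, and T and NK cells held 8 and 9 of the COL UMIs (44.4 and 35.1 CPM). It passed the test over all nuclei (edgeR adjusted p = 0.0413), but not without NS replicate 2 (adjusted p = 0.107) or COL replicate 1 (adjusted p = 0.0523). Ackr3, which binds CXCL12, was at 26.0 and 26.6 CPM in NS OPC and 12 and 12.2 CPM in COL OPC, and it fell by 1.09 ± 0.27 (edgeR adjusted p = 0.0191), a call lost in DESeq2 (adjusted p = 0.16) and without NS replicate 1 (adjusted p = 0.0633) or NS replicate 2 (adjusted p = 0.0994). In astrocytes Ackr3 was at 24.5 and 19.1 CPM in NS and 21.7 and 11 CPM in COL.

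Of the chemokine family, 61 of 65 listed genes were found in the files. Besides the 9 members, 32 were tested over all nuclei, and 11 were higher in COL and none lower, beside 9.45% of all genes called. They were 8 of 18 ligands (median log2 fold change of the 18, 1.61, also with Ccl7 at its bound) and 3 of 14 receptors (median 0.02), against a median of 0.02 over all genes. Ccl7, a ligand of CCR2, had 0 UMIs in NS and 126 and 143 in COL, at least 94.4-fold. The platelet factor gene Pf4 (6.48 ± 0.64), the neutrophil-attracting Cxcl2 (6.26 ± 0.64) and Cxcl3 (5.20 ± 0.99), and Ccl6 (4.34 ± 0.41) and Ccl9 (3.94 ± 0.37), ligands of CCR1, also rose, with edgeR adjusted p-values of 0.0049, 0.0053, 0.0321, 0.00421 and 0.00427. Ccr7, a receptor of migrating dendritic cells, Ccl12, Cxcl16 and Cxcr3 were among the others. Ccl7, Pf4, Cxcl2, Cxcl3, Ccl12, Ccr7 and Cxcr3 passed the filter only through their COL counts, which favoured a higher call. Of the COL macrophages with a Ccl2 UMI, 38.8% and 20.0% also had Ccl7, against 8.55% and 5.84% of the others, and the nuclei with Ccl2 were deeper (median 4968 and 5250 UMIs against 4165 and 4340).

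By cell type, Ccl12 (2.26 ± 0.55) and Cxcl16 (2.52 ± 0.77) rose in microglia and Ccl27a fell by 1.67 ± 0.52 (edgeR adjusted p-values 0.00816, 0.0265 and 0.0281). With Cx3cr1, 2 of 9 such genes tested in microglia were higher and 2 lower, beside 28.2% of all genes called there. The 2 higher, Ccl12 and Cxcl16, passed the filter in microglia only through their COL counts, which favoured a higher call. Oligodendrocytes had 5 of 16 higher and 3 lower, beside 22.3% of all genes, with Ccl27a, Ccl28 and Ccr9 on the lower side. Among the higher were Ccl6, Ccl7 and Pf4, which had 0 or 1 UMI per NS library there. They passed the filter only through their COL counts, which favoured a higher call. In astrocytes Pf4, also tested only through its COL counts, was higher and Cxcl14 lower, of 11 tested, beside 15.9% of all genes. In OPC 1 was higher and 3 were lower (Ccr9, Cxcl14 and Ackr3), of 9 tested, beside 18.1% of all genes. No such gene was called in neurons, where 0% of the 23741 genes tested were called by edgeR. There 11 of 25 had an unadjusted p under 0.05, as had 6681 of all genes. None of the 2 tested in vascular cells was called, beside 1.35% of all genes.

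Of 18 genes that act below chemokine receptors, 6 rose over all nuclei and none fell (median log2 fold change 0.62), beside 9.45% of all genes called. They were Rac2 (2.82 ± 0.43), Vav1 (2.77 ± 0.21), Pik3r5 (2.66 ± 0.22), Dock2 (1.65 ± 0.15), Pik3cg (1.55 ± 0.31) and Lyn (1.30 ± 0.18), which are genes of leukocytes. In microglia 1 of the 18, Dock2, rose by 0.59 ± 0.16, and Elmo1 (-0.48 ± 0.16) and Pik3cg (-0.70 ± 0.21) were lower, beside 28.2% of all genes called there, a larger share than 3 of 18. Of 14 genes that induce chemokines, 6 rose and 1 fell over all nuclei (median 0.76), beside 9.45% of all genes called. The cytokine genes Il1b (5.49 ± 0.48, edgeR adjusted p = 0.0033) and Tnf (4.69 ± 0.54, adjusted p = 0.00727) rose with Tnfrsf1a, Nfkbiz and Nfkbia among others, while Nfkb2 fell by 0.99 ± 0.22. In microglia Tnf (2.53 ± 0.53), Nfkbiz (1.08 ± 0.28) and Hif1a (1.00 ± 0.22) rose, and Ifngr1 fell by 0.99 ± 0.19. These were 3 higher and 1 lower of 13 tested, beside 28.2% of all genes called there, so the list did not stand out in microglia. The number of macrophages rose with these groups over all nuclei (3 and 5 nuclei against 318 and 471), and its part in them was not tested. For the 9 members, 6 were called also without the nuclei named macrophages or T and NK cells, beside 1184 of 25415 genes called. That fit kept the mixed nuclei and any macrophage RNA in other nuclei, so it did not test the part of macrophages.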

How the data were processed

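Nuclei of mouse thalamus were profiled in 4 libraries (NS and COL, 2 each), made with 10x Genomics chemistry and, per the study's methods and the submitters' processing notes, processed with Cell Ranger 1.2.0 against mm10. What the authors deposited for a library was a matrix of raw UMI counts, with genes against barcodes, to which no scaling had been applied. Whether reads on the opposite strand were counted is not given in the sources used here. The files held 68746459 to 77557870 UMIs per library.

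Barcodes with more than 50 genes and under 5% mitochondrial UMIs were kept and clustered in Seurat 5.3.0 (R 4.3.3; 5000 variable genes without 23 genes of the chemokine family, 15 PCs, resolution 0.8). A cluster was named where at least 3 markers of a type were found in 10% of its nuclei and the type led by 0.3 in score, a rule set after the clusters had been seen. Doublets were scored with the Scrublet method in Python 3.11.15 (scanpy 1.11.5), clusters with over 50% of them were called mixed, and 0.8% per 1000 nuclei were removed in an alternative.

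The counts of a cell type were summed within a library and tested with edgeR 4.0.16 (TMM, filterByExpr, quasi-likelihood test, Benjamini-Hochberg adjustment over all genes tested, threshold 0.05) where every library held at least 20 nuclei. DESeq2 1.42.0 was the alternative. With 2 libraries per group an exact permutation test cannot go below p = 0.333, so none was used. Shares have exact 95% intervals, and groups at 0 were set to 3 UMIs over the group. Simulated data with known changes were used to test the fits, and 73.8% (neurons) to 97.0% (microglia and OPC) of genes changed by 4 times were called by edgeR in the COL against NS comparisons. Of the unchanged genes edgeR falsely called 2 (vascular cells) to 10 (oligodendrocytes) there. DESeq2 falsely called 0 (microglia and vascular cells) to 37 (neurons and all nuclei). Between macrophages and microglia the false calls were 17 in edgeR and 1 in DESeq2. The simulation changed few genes and drew each gene independently, so these shares and counts do not hold for the real libraries. In the real neurons edgeR called 0 of 23741 genes.

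The 9 members and all gene lists were chosen with earlier results of these data known. All members, their partners, and the called genes of the family and signalling lists (at most the 10 of largest change per comparison) were named, apart from some genes and a sequence that are not reported here. The comparisons of vascular cells, the sums without macrophages and T and NK cells, and those without dividing microglia were added after the data had been seen.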

Additional observations from a re-analysis of the deposited data

Results flagged for a closer look

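The change in microglia differed from the mean change in neurons, oligodendrocytes, astrocytes and OPC for 3 of 16 genes of the chemokine family outside the 9 members, Ccl9 and Ccl6 among them, by the interaction term (edgeR quasi-likelihood test, adjusted over 18198 genes, of which 4.81% were called). The differences on the log2 scale were -4.24 for Ccl9 (adjusted p = 0.0103) and -6.35 for Ccl6 (adjusted p = 0.00071). Ccl6 had no UMI in NS oligodendrocytes, so the size of its difference depends on how zeros were fitted. In neurons of COL replicates 1 and 2 Ccl6 lay at 0.625% and 1.40% of its macrophage level, against macrophage marker medians of 0.565% and 2.54%. In oligodendrocytes it lay at 1.51% and 3.79%, against 0.834% and 3.23%. The part of free or carried-over macrophage RNA in these differences was not tested.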

How the results depend on the processing

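Over all nuclei 6 of 9 members were called under every alternative run, and Cxcl10 also passed without a filter and with the replicate block (7). Of the fitted log2 fold changes of the 9 members under an alternative, 504 kept their direction and their side of the threshold, 34 newly passed it and 31 no longer did, and none that was called changed sign. For 4 values DESeq2 gave no adjusted p. The marker score reversed Elmo1 in microglia (0.0424) and Ccr9 in macrophages against microglia (-1.05), and the cause was not tested. Alternatives that leave out a library between macrophages and microglia leave no residual degrees of freedom and were not run. With DESeq2 the split of genes called higher and lower was 1924 and 2609 over all nuclei (edgeR 1284 and 1132), 3711 and 5542 in oligodendrocytes against the other types (4382 and 4333) and 2036 and 1193 in vascular cells against the other types (1552 and 1879), where the median of all genes was -0.06 (edgeR -0.22).

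Members called, COL against NS: DESeq2 called 3 in neurons, beside 2455 of 23741 genes. Without a filter 3 were called in neurons, 5 in oligodendrocytes, 3 in astrocytes and 3 in OPC. The genes called there were 169 of 38558, 5367 of 31075, 3380 of 29059 and 3213 of 26898. With nuclei thinned to 2000 UMIs 0 were called in oligodendrocytes, astrocytes and microglia, where fewer members then passed the filter. The genes called there were 3104 of 14094, 1412 of 11985 and 2558 of 9871. The marker score called 3 in OPC, beside 2633 of 16136 genes. Without dividing microglia 1 was called in microglia, beside 2595 of 10976 genes. In the interaction DESeq2 and the fit without a filter each called 1. Against the other types, without a filter 5 were called in neurons, 2 in oligodendrocytes, 2 in astrocytes, 5 in microglia, 2 in OPC and 2 in vascular cells. Without the library block 1 was called in neurons and 0 in oligodendrocytes, microglia, OPC and vascular cells, and thinning gave the same counts. The marker score called 4 in neurons, 2 in oligodendrocytes, 1 in astrocytes, 0 in OPC and 0 in vascular cells. In neurons 12953 of 39739 genes were called without a filter and 11257 of 18319 with the marker score. There 7824 of 16539 were called without the block and 7433 of 12715 after thinning. In the other types the main fits called 20.7% (vascular cells) to 52.7% (oligodendrocytes) of all genes. Their shares under these alternatives are not given here, so these counts are not a result about the members. In macrophages 3 members were higher than in every other type after thinning, where unthinned sums gave 4.

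Leaving out each library in turn, members called ranged from 0 to 5 in neurons, 2 to 6 in oligodendrocytes, 0 to 1 in astrocytes, 1 to 3 in microglia, 0 to 1 in OPC and 0 to 1 in vascular cells. Against the other types they ranged from 2 to 4 in neurons, 0 to 1 in oligodendrocytes, astrocytes and OPC, 0 to 2 in microglia and 1 to 2 in vascular cells. Microglia had 1 member called without COL replicate 1 and 2 without NS replicate 1 or COL replicate 2. Neurons had 3 without COL replicate 1 and 5 without COL replicate 2. Genes called ranged from 0 to 5317 in neurons, 2289 to 6974 in oligodendrocytes, 1294 to 2448 in astrocytes, 1567 to 3713 in microglia, 1416 to 3427 in OPC, 1603 to 7012 over all nuclei, 123 to 193 in vascular cells and 79 to 780 in the interaction.

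Genes called, COL against NS: DESeq2 called 2455 in neurons, 1220 in astrocytes, 1703 in microglia, 1047 in OPC, 4533 over all nuclei and 22 in vascular cells. Without a filter 169 were called in neurons, 6893 over all nuclei and 192 in vascular cells. Thinning gave 1412 in astrocytes, 1183 in OPC, 3961 over all nuclei, 0 in vascular cells and 500 in the interaction. The marker score gave 2 in neurons, 583 in vascular cells and 386 in the interaction, and 1184 were called without macrophages and T and NK cells. Against the other types, OPC had 3531 without the library block and 3462 after thinning, and vascular cells 2074 after thinning. Between macrophages and microglia, DESeq2 called 1551, no filter 2397, no library block 2075 and the marker score 2441.

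The replicate numbers share only a number: same-numbered libraries had correlations of 0.025 to 0.16 in their deviations from the group means. With the replicate number as a replicate block 4 members and 780 genes were called in neurons, 5563 genes over all nuclei, 259 genes in vascular cells and 2 members (Ccr1 and Ccr2) in the interaction.

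Depth limits the low genes: with 70806 UMIs in the vascular cells of NS replicate 1, 0 UMIs of a gene allow a level of up to 42.4 CPM.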
